A study of Mus musculus with 46 samples.

Results

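The genes described here are 42 complement and coagulation factors, taken by symbol from the 25494 gene rows of a liver RNA-seq count table. They comprise 11 coagulation proteases and cofactors, the 3 fibrinogen chains, 9 anticoagulants and fibrinolysis genes, 8 genes of the classical and lectin pathways of complement, 6 genes around C3, the alternative pathway and its regulators, and 5 genes of terminal complement. Livers came from male C57BL/6 mice that arrived at 5 weeks of age, were first kept on chow, and were then fed for 20 weeks either a lipid-rich diet (LD, labelled high fat diet, lipid giving 60% and carbohydrate 20% of calories) or a carbohydrate-rich diet (CD, labelled low fat diet, 10% and 70%). Both groups shared strain and sex, and the labels name no engineered allele and no drug, so that diet was the only labelled difference. The question addressed was how the liver responds to a diet rich in lipid. RNA-seq covered 5 livers per diet, chromatin immunoprecipitation sequencing (ChIP-seq) of acetylated histone H3 lysine 27 (H3K27ac, a mark of active promoters and enhancers) 3 per diet, and ChIP-seq of the liver transcription factors HNF4α and C/EBPα 2 per diet each. Promoter capture Hi-C, which maps the fragments that promoters touch, was available as 1 pooled list per diet.

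Most plasma clotting and complement proteins are made by hepatocytes and secreted into blood. In coagulation, a chain of serine proteases activates thrombin, which cuts fibrinogen into fibrin, while anticoagulants brake the chain and plasmin dissolves the clot. In complement, the classical, lectin and alternative pathways meet at C3, the central opsonin, and end in a pore assembled from the terminal components. HNF4α and C/EBPα are hepatocyte factors known to act at many of these genes, and fibrinogen and C3 are textbook acute phase proteins.

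RNA-seq library totals ranged from 31707963 to 39012699 counts, and 13494 rows passed the filter on low counts, among them all 42 members. Levels are given per library as CPM, the count of a gene scaled to the library total after adjustment by edgeR's TMM factor for that library. Percentages of counts use the library totals without this factor. Where genes are compared with each other, levels are given as deposited TPM, which is scaled to transcript length. A gene was called when the adjusted p of edgeR's quasi-likelihood test was under 0.05 and the fold change above 1.2. Over all genes 3357 were called, and the median log2 fold change (LD over CD) was -0.0019. Albumin (Alb), the defining hepatocyte transcript, took 67060 CPM on LD and 70260 on CD (log2 fold change -0.07, adjusted p = 0.614), but 3 of 6 hepatocyte markers (Cps1, Tat and Serpina1a) were called lower on LD. The summed level of the 6 hepatocyte markers was 78410 to 95430 CPM on LD and 84220 to 100100 on CD. In bulk liver, fewer cells of a type and less RNA per cell cannot be told apart. The labels do not say that replicates were separate animals, although the study's methods do, so that p-values measure the spread between these libraries.

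On LD, 18 of the 42 members were called lower and 2 were called higher, against 11.1% of all tested genes called lower and 13.8% called higher. With edgeR's glmTreat, which tests against a 1.2-fold change itself, 11 members were called lower and 1 higher, against 3.4% and 6.81% of all tested genes. The median log2 fold change of the members was -0.23. Fibrinogen chains, factors VII and XI, C3 and the pore components C6, C8a and C8b were among those that fell, and the 2 that rose were Pros1 and Cfd. By TMM-adjusted CPM, every LD library lay below every CD library in 19 members and above in 2, against 8.35% and 10.2% of all tested genes. By TPM the counts were 15 and 5, since Plg, C3, Proz and Proc overlapped and C1s1, Cfb and Cfi were then higher in every LD library. No share over all tested genes was computed by TPM. With limma on log2(TPM + 1) the median log2 difference of all genes was 0.0563, so the CPM shares do not apply to these counts. Because many members are abundant, genes with a mean of at least 100 CPM were also counted, a limit chosen after the data were seen. Of 35 such members, 14 were called lower and 0 higher, against 21.3% and 14% of 1425 such genes, and the medians were -0.226 for the members and -0.065 for the genes. The 42 members together took 3.05 to 3.34% of all counts in the LD libraries and 3.98 to 4.13% in the CD libraries, and the 2 ranges did not overlap.

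**Figure D1:**
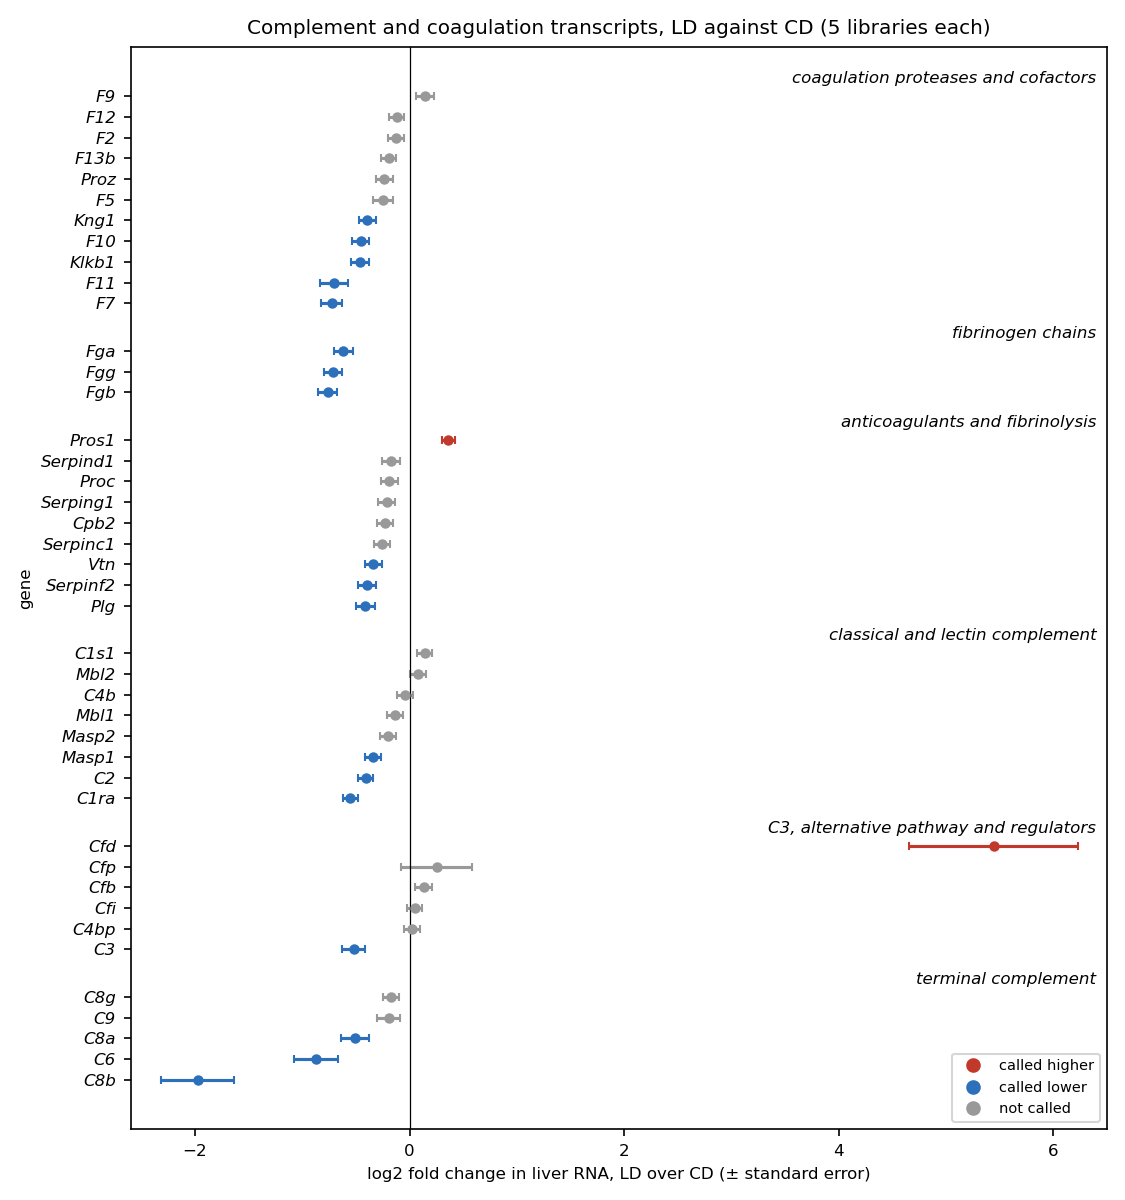
Log2 fold change in liver RNA (LD over CD, horizontal axis) of each of the 42 members (vertical axis, grouped by role), with points for edgeR estimates and bars for their standard errors from 5 libraries per diet. Of the 42 points, 18 are called lower, 2 are called higher and 22 are not called, and Cfd at 5.44 and C8b at -1.97 lie farthest from 0.

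The fibrinogen genes stand side by side on chromosome 3 in the order Fgg (chr3:82811646-82818978), Fga (chr3:82830075-82837539) and Fgb (chr3:82846168-82853785, minus strand), in mm9 coordinates. They encode the gamma, alpha and beta chains of the clot protein. Fgb, the most abundant of the 42 members by TPM (3127 ± 151 on LD and 5041 ± 471 on CD, mean ± SD, n = 5), was at 2908, 2967, 2703, 3082 and 2446 CPM in LD replicates 1 to 5. In CD replicates 1 to 5 it was at 5219, 4969, 4213, 5172 and 4371 CPM. The highest LD library was thus below the lowest CD library, and Fgb fell by 41.1% (log2 fold change -0.76, SE 0.091, adjusted p = 8.43e-05 by edgeR). Fgg was at 2352, 2336, 2258, 2499 and 2168 CPM in the LD libraries and at 4187, 3987, 3212, 3840 and 3806 CPM in the CD libraries. It fell by 39.0% (log2 fold change -0.71, SE 0.0831, adjusted p = 7.36e-05 by edgeR), again with no overlap between diets. For Fga the LD libraries gave 3113, 3080, 2988, 3593 and 2879 CPM, and the CD libraries gave 5292, 5039, 4299, 4486 and 4867 CPM. Fga fell by 34.7% (log2 fold change -0.62, SE 0.0861, adjusted p = 0.000254 by edgeR), so that the falls of the 3 chains lay between 34.7% and 41.1%. In every LD library the 3 chains together took 0.808 to 0.9% of counts, and in every CD library 1.14 to 1.41%.

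Promoter sequence of the 3 chains is shown because the genes moved together and because C/EBPα was measured on this locus. Promoters come from RefSeq (GRCm38.p6 table) and were placed on mm9 by exact match, which succeeded for 35 start sites of 33 members. The 250 bases before each start were searched on both strands for the C/EBP word TTGCNNAA, the HNF4 word CAAAGTCCA and an HNF1 palindrome, where N is any base, and no match overlapped another. Capitals mark the C/EBP word, and sequence runs 5′ to 3′ on the strand of the gene. In Fga the word spans bases -135 to -128 from the start and in Fgb bases -80 to -73. The Fgg promoter held none of the 3 words.
Fga (chr3:82829825-82830074, plus strand): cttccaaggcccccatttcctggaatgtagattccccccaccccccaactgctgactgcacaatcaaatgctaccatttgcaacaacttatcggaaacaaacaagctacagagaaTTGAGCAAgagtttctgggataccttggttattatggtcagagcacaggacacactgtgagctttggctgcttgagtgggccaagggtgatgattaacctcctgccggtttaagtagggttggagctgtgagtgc
Fgb (chr3:82853786-82854035, minus strand): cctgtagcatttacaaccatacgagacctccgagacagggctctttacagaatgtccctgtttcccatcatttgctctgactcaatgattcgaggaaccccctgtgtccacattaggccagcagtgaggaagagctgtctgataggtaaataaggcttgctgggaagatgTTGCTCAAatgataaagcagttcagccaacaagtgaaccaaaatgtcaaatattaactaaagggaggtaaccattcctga
Fgg (chr3:82811396-82811645, plus strand): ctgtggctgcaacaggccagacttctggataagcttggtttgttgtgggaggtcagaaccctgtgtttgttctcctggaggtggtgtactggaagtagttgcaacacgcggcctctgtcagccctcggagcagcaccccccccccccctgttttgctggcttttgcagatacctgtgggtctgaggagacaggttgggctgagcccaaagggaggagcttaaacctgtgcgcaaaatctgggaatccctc

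The C/EBP word was found before 8 of 35 member starts (22.9%), those of Fga, Fgb, F11, Klkb1, F9, C1s1, C9 and C3, and before 9.56% of 32851 starts in the RefSeq table. A C/EBPα peak found in all 4 samples overlapped 12 of the 35 promoters, among them Fga, F9 and C3. Fgb, F11, Klkb1, C1s1 and C9 held the word without such a peak, and Fgg had the peak without the word. The HNF4 word was found before 0.384% of all starts and the HNF1 word before 0.00913%, and neither before a member start. A match is a description of letters and not a mapped site.

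Of the 11 coagulation proteases and cofactors, 5 fell on LD and 0 rose. F7 encodes factor VII, which starts clotting when it meets tissue factor. It was at 49.2, 52.7, 40.0, 47.2 and 35.0 CPM in LD replicates 1 to 5 and at 72.4, 73.8, 79.4, 71.4 and 73.5 CPM in CD replicates 1 to 5. F7 fell by 39.5% (log2 fold change -0.72, SE 0.0967, adjusted p = 0.000186 by edgeR), and the diets were well separated. F11 encodes factor XI, a protease of the contact-started arm, and was at 57.0, 56.7, 40.5, 41.2 and 40.8 CPM on LD against 82.9, 72.0, 90.8, 60.3 and 78.8 CPM on CD. It fell by 38.6% (log2 fold change -0.70, SE 0.131, adjusted p = 0.00216 by edgeR). Its LD replicates 1 and 2 were higher than the other three but still below every CD library.

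F10 encodes factor X, which makes thrombin from prothrombin. Its LD libraries held 317, 311, 299, 327 and 258 CPM and its CD libraries 454, 416, 398, 409 and 399 CPM. The level fell by 27.1% (log2 fold change -0.46, SE 0.0764, adjusted p = 0.000813 by edgeR). Klkb1, the gene of plasma prekallikrein, was at 414, 372, 322, 349 and 327 CPM on LD and at 476, 516, 531, 486 and 447 CPM on CD, a fall of 0.46 on the log2 scale (SE 0.0832, edgeR adjusted p = 0.00136) without overlap. Kng1 encodes kininogen, the cofactor of prekallikrein and source of bradykinin. Its values were 1835, 1763, 1800, 1949 and 1562 CPM on LD and 2529, 2329, 2208, 2415 and 2215 CPM on CD. Kng1 fell by 0.39 on the log2 scale (SE 0.0781, edgeR adjusted p = 0.00246). Reads of Kng1 may be shared with its close copy Kng2, which makes its level uncertain.

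The other 6 of this group were not called. F2, the gene of prothrombin and by TPM the most abundant of the group (1485 ± 61.9 on LD and 1539 ± 25.7 on CD), was at 1602, 1573, 1634, 1768 and 1399 CPM in the LD libraries and at 1827, 1742, 1706, 1719 and 1713 CPM in the CD libraries. Its log2 difference was -0.13 (edgeR adjusted p = 0.228), and the diets overlapped. F5 (the cofactor factor V), F9 (factor IX), F12 (factor XII) and F13b (the carrier subunit of factor XIII) had log2 differences between -0.25 for F5 and 0.15 for F9, with edgeR adjusted p from 0.0558 to 0.233. Proz encodes the cofactor of an inhibitor of factor X. It had an adjusted p of 0.0359 by edgeR with a log2 difference of -0.23, short of the fold limit, and its LD libraries lay below its CD libraries by CPM. Proz was called lower without LD replicate 4 (-0.28, edgeR adjusted p = 0.0161) and F5 without CD replicate 1 (-0.32, edgeR adjusted p = 0.0198).

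**Figure D2:**
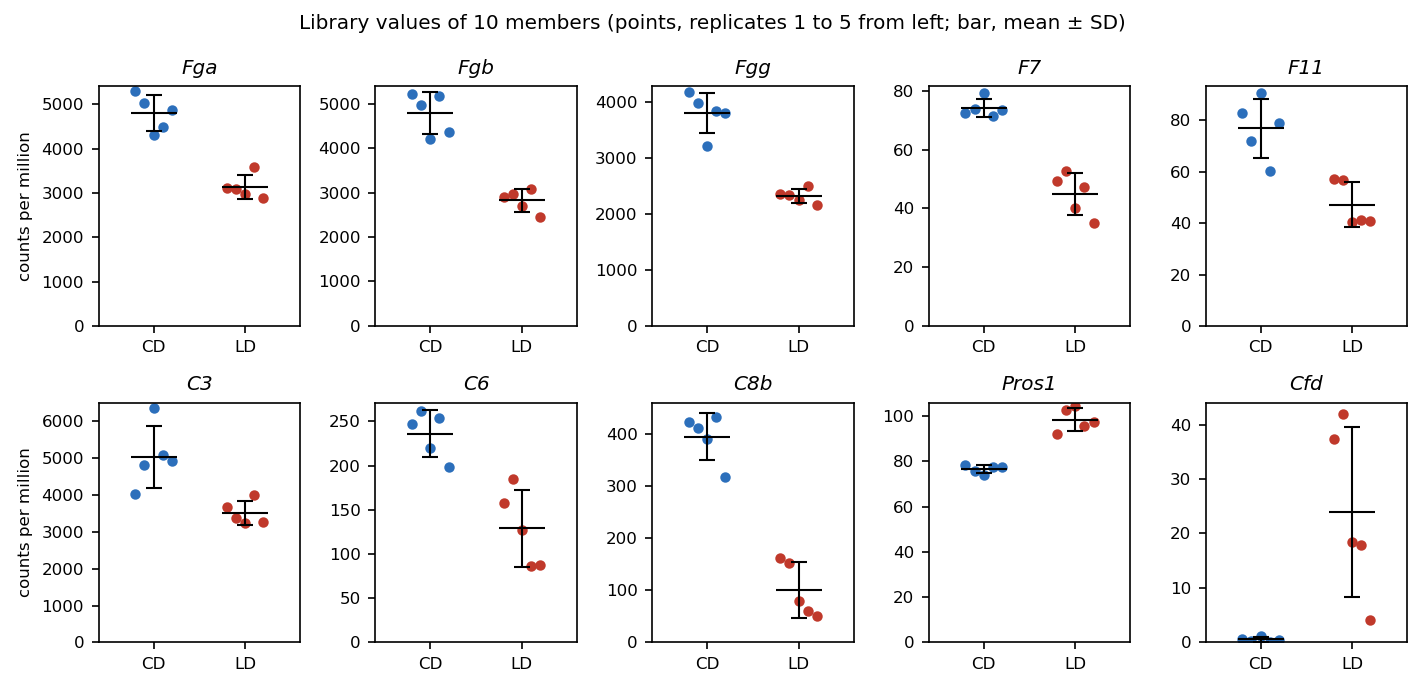
CPM (vertical axes, starting at 0) of 10 members in each CD and LD library, points ordered by replicate number within a diet and bars giving mean ± SD (n = 5). In all 10 panels the 2 diets do not overlap, and C8b, C6 and Cfd have the widest relative spread among LD libraries.

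Among 9 anticoagulants and fibrinolysis genes, 3 fell and 1 rose. Plg encodes plasminogen, the precursor of the fibrin-dissolving protease plasmin. It was at 1274, 1129, 1149, 1299 and 1038 CPM on LD and at 1400, 1561, 1747, 1608 and 1515 CPM on CD, a fall of 24.8% (log2 fold change -0.41, SE 0.085, adjusted p = 0.00314 by edgeR). Serpinf2 encodes antiplasmin, the main plasmin inhibitor, and was at 559.5, 555, 494, 604 and 454 CPM on LD and at 699.6, 666, 744, 679 and 728 CPM on CD. It fell by 24.2% (log2 fold change -0.40, SE 0.083, adjusted p = 0.00327 by edgeR). Both were lower without overlap by CPM, but by TPM the highest LD value of Plg (875.5) was above the lowest CD value (861.8). Vtn, which encodes vitronectin, a plasma adhesion protein that restrains the complement pore, had the highest TPM of the group averaged over both diets (1600 ± 86.0 on LD and 1921 ± 36.9 on CD), although on LD the mean of Serpinc1 was 1625. Its libraries gave 1482, 1520, 1477, 1660 and 1251 CPM on LD and 1946, 1880, 1818, 1818 and 1874 CPM on CD, a fall of 0.34 on the log2 scale (SE 0.0795, edgeR adjusted p = 0.00682).

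Pros1, which encodes protein S, the cofactor of activated protein C, went the other way. It was at 92.0, 103, 104, 95.9 and 97.4 CPM in the LD libraries and at 78.4, 75.7, 74.0, 77.5 and 77.6 CPM in the CD libraries. Every LD library was above every CD library, and Pros1 rose 1.29-fold (log2 fold change 0.36, SE 0.0574, adjusted p = 0.000589 by edgeR). Serpinc1 (antithrombin) and Cpb2 (a carboxypeptidase that slows fibrinolysis) had edgeR adjusted p of 0.0188 and 0.0348 with log2 differences of -0.25 and -0.23, below the fold limit. Serpinc1 was called lower without LD replicate 4, CD replicate 3 or CD replicate 5 (log2 fold change -0.29 to -0.26, edgeR adjusted p from 0.0118 to 0.0333). Proc (protein C), Serpind1 (heparin cofactor II) and Serping1 (the inhibitor of C1 and kallikrein) had log2 differences of -0.19, -0.17 and -0.21 and were not called.

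In the classical and lectin pathways 3 of 8 members fell and 0 rose. C1ra encodes the C1r protease that starts the classical pathway. It was at 167, 165, 156, 155 and 136 CPM on LD and at 224, 232, 230.0, 241 and 214 CPM on CD, a fall of 31.7% (log2 fold change -0.55, SE 0.0693, adjusted p = 0.000121 by edgeR). Its near-identical copy C1rb had only 3 counts in all LD libraries and 18 in all CD libraries, so that few reads were assigned to the copy. C2, the protease subunit of the C3 convertase, was at 82.2, 84.8, 77.7, 89.6 and 72.2 CPM on LD and at 104, 106, 113, 116 and 100.4 CPM on CD. It fell by 24.7% (log2 fold change -0.41, SE 0.0708, adjusted p = 0.00102 by edgeR). Masp1, a protease of the lectin pathway, was at 84.4, 74.9, 73.7, 70.8 and 72.1 CPM on LD and at 84.2, 102, 106, 94.9 and 88.9 CPM on CD. Here LD replicate 1 lay just above CD replicate 1, so that the diets overlapped, and the fall was 0.34 on the log2 scale (SE 0.0763, edgeR adjusted p = 0.00512). With log2(TPM + 1) and limma it was -0.2557 with an adjusted p of 0.0469, under the fold limit.

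The remaining 5 were not called. Mbl2, a mannose-binding lectin that recognizes microbial sugars and has the highest TPM of this group (759 ± 56.4 on LD and 680.5 ± 32.0 on CD), was at 409, 414, 488, 443 and 389 CPM on LD and at 412, 389, 401, 388 and 438 CPM on CD. Its log2 difference was 0.08 (edgeR adjusted p = 0.454), and the diets overlapped. Mbl1, C1s1 (the protease partner of C1r), Masp2 (the protease that cuts C4 and C2) and C4b (which gives the other convertase subunit) had log2 differences of -0.14, 0.14, -0.20 and -0.04. The difference of C4b changed sign with log2(TPM + 1) and limma, to 0.0363, where the median of all genes was 0.0563. C4b also has a close copy in the mouse genome that may share its reads. Whether C1ra and its partner C1s1 differed in their response was not tested.

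Of the 6 genes around C3, 1 fell and 1 rose. C3 itself was at 3672, 3374, 3236, 3987 and 3253 CPM in the LD libraries and at 4012, 4803, 6344, 5088 and 4907 CPM in the CD libraries. Even the lowest CD library, replicate 1, was above the highest LD library, replicate 4, and C3 fell by 30.3% (log2 fold change -0.52, SE 0.111, adjusted p = 0.00381 by edgeR). By TPM C3 was the most abundant of this group (1290 ± 91.6 on LD and 1763 ± 328 on CD), and the diets overlapped, with LD reaching 1400 and CD starting at 1324. The C3 promoter is printed because it lay under a C/EBPα locus in all 4 samples, with the C/EBP word at bases -45 to -38 in capitals.
C3 (chr17:57367560-57367809, minus strand): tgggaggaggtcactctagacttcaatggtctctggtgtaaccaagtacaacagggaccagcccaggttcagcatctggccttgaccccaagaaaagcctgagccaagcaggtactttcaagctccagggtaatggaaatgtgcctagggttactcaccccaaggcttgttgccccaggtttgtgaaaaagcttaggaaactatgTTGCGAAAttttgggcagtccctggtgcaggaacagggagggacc

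Cfd encodes factor D (adipsin), the protease that cuts factor B and a product best known from fat cells. It had the largest difference of the 42 members. The LD libraries held 37.3, 41.95, 18.4, 17.8 and 4.05 CPM and the CD libraries 0.637, 0.313, 1.26, 0.095 and 0.407 CPM. All LD libraries were above all CD libraries, but they spread widely, and LD replicate 5 was far below LD replicates 1 and 2. The fitted fold was 43.5 (log2 fold change 5.44, SE 0.786, adjusted p = 0.00147 by edgeR), from 145 to 1667 counts per LD library and 3 to 45 per CD library. With any 1 library left out the log2 fold change stayed between 5.14 and 6.03. Because of the CD library with 3 counts, Cfd did not pass a filter of at least 10 counts in every sample.

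Adipocyte markers were read beside Cfd. Over the 5 libraries of each diet Adipoq had 2 counts on LD and 7 on CD, Retn had 4 and 1, and Lep and Plin1 had 0 in both. Aqp7, which other cells also express, had 101 counts on LD and 2 on CD, and Lipe, the only one of the 6 that passed the filter, was called higher (log2 fold change 0.44). The summed level of the 6 markers was 16.1 to 25.7 CPM on LD and 12.1 to 19.0 on CD, highest in LD replicate 1. Lipe gave most of it (14.99 to 25.46 CPM on LD). In LD replicate 2, the library highest in Cfd, the sum was 17.8 CPM. Aqp7 was highest in LD replicate 5 (1.09 CPM), the LD library lowest in Cfd. The part of adipocytes in the level of Cfd was not tested.

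The other 4 genes, Cfb (factor B), Cfi (factor I, which inactivates C3b), C4bp (its cofactor) and Cfp (properdin, which stabilizes the alternative convertase), were not called, with log2 differences of 0.13, 0.05, 0.03 and 0.25. Cfp is known to be made by myeloid cells. It was at 41.0, 55.1, 29.3, 26.0 and 16.0 CPM on LD and at 37.0, 31.6, 19.8, 18.9 and 33.5 CPM on CD, with the highest value in LD replicate 2, and without that library the log2 difference was -0.0032. The same library had the highest summed level of 7 Kupffer cell and macrophage markers (1007 CPM, against 328 to 657 in the other LD libraries and 325 to 629 on CD) and of 6 neutrophil markers (72.9 CPM, against 7.29 to 7.91 and 4.39 to 5.39). Of these lists, Cd68 was the only macrophage marker called higher and S100a8 the only neutrophil marker. Their part in the level of Cfp was not tested.

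In terminal complement 3 of 5 members fell and 0 rose. C8b encodes the beta chain of C8, which docks the pore complex in the membrane. It was at 162, 152, 78.8, 59.3 and 49.7 CPM in LD replicates 1 to 5 and at 422, 411, 391, 432 and 318 CPM in CD replicates 1 to 5. C8b fell by 74.5% (log2 fold change -1.97, SE 0.341, adjusted p = 0.00281 by edgeR), the largest fall of the 42 members. LD replicates 1 and 2 were well above the other LD libraries, yet below every CD library. C6, an early component of the pore, was at 157, 185, 128, 86.8 and 87.6 CPM on LD and at 247, 261, 219, 254 and 199 CPM on CD. It fell by 45.4% (log2 fold change -0.87, SE 0.203, adjusted p = 0.0091 by edgeR), and its LD replicates 1 and 2 were again the highest of that diet. C8a, the alpha chain of C8 and the neighbour of C8b on chromosome 4, was at 594, 638, 526, 422 and 400.5 CPM on LD and at 752, 804, 833, 632 and 657 CPM on CD. C8a fell by 0.51 on the log2 scale (SE 0.131, edgeR adjusted p = 0.0115), with LD replicate 2 just above CD replicate 4.

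The third C8 chain, C8g, had the highest TPM of the group (587 ± 33.0 on LD and 627 ± 18.9 on CD) and was not called. It was at 421, 386, 378, 395 and 338 CPM on LD and at 472, 418, 406, 430.1 and 436 CPM on CD (log2 difference -0.17, edgeR adjusted p = 0.099), with overlap. C9, which forms the wall of the pore, had a log2 difference of -0.19 (edgeR adjusted p = 0.208) and was called lower without LD replicate 2 (-0.29, edgeR adjusted p = 0.0384). By TPM, C8b was at 317 ± 37.7 on CD against 364 ± 45.9 for C8a, and at 84.6 ± 43.9 on LD against 268 ± 50.1 for C8a. The promoter of C8b is shown as that of the member with the deepest fall, and that of C6 because C/EBPα was called there, and neither held one of the 3 words.
C8b (chr4:104438672-104438921, plus strand): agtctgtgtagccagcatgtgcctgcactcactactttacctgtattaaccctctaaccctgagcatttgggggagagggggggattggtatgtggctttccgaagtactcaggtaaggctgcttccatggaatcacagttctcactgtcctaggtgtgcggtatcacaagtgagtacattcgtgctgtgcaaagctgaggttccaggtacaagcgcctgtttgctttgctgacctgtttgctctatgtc
C6 (chr15:4676960-4677209, plus strand): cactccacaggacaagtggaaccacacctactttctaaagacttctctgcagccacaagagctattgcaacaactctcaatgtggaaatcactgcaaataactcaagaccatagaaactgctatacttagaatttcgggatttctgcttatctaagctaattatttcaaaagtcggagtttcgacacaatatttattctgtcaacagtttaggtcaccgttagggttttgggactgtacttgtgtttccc

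Other genes of the cascades were read from lists of genes outside the 42. Of 25 other coagulation and fibrinolysis genes, 24 were tested, 9 were called higher and 3 lower. Of 29 other complement genes, 27 were tested, 6 were called higher and 3 lower. Over all tested genes 13.8% were called higher and 11.1% lower, so that the counts of lower genes in both lists were near the background. Genes are named only if called with more than a 2-fold change. Plat and Plau, which encode the proteases that activate plasminogen, rose by 1.09 and 1.03 on the log2 scale, and the receptor Plaur by 1.24. Anxa2, a cell surface receptor for plasminogen, rose by 2.46, and Thbs1 by 1.28. F13a1, the catalytic subunit of factor XIII, rose by 1.18, and A2m, a broad protease inhibitor with 115 counts in sum on LD and 18 on CD, by 2.59. Among complement genes, the receptors C5ar1 and Itgax rose by 1.68 and 2.48, and C7, the pore component next to C6, fell by 1.73. Several of these are known from macrophages and stromal cells, of whose markers 1 of 7 (macrophage) and 3 of 6 (stellate cell) were called higher. Their summed levels were 328 to 1007 CPM on LD against 325 to 629 on CD, and 676 to 975 against 567.6 to 698, and their part in these values was not tested.

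The chromatin of the members was then compared. H3K27ac peaks were deposited as intervals without a signal value, so each gene was described by the percentage of the gene and 20 kb on each side that peaks covered. The start site was covered in all 6 samples in 40 of 42 members and in 80.7% of tested genes, the exceptions being Cfd (2 samples) and Cfp (4 samples). Median coverage was 39.4% for members, from 5.7% to 98.4%, and 14.9% for all tested genes. LD samples had more peaks (53821 to 56987) and more covered sequence (149.8 to 160.4 Mb) than CD samples (48156 to 51608 and 139.7 to 145.4 Mb).

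Coverage was lower in every LD sample than in every CD sample in 10 members and higher in 2, against 5.83% and 21.6% of tested genes. The first count was 18 without LD replicate 1 (against 11% of tested genes), 17 without CD replicate 2 (8.34%) and 15 without LD replicate 2 (8.89%), and the second was 4 without CD replicate 2 (30.1%). With 3 samples against 3 an exact test cannot give a two-sided p under 0.1, so no test was made. The 10 were F7, F10, Proz, Serpinf2, C8b, C8a, Serpinc1, Klkb1, Kng1 and C1s1, of which 7 were also called lower in RNA, against 34.7% of the 787 tested genes with lower coverage. F10 was covered to 56.1, 48.5 and 33.0% in LD replicates 1 to 3 and to 67.5, 69.2 and 63.1% in CD replicates 1 to 3. F10 lies between F7 and Proz on chromosome 8, so the windows of these 3 genes overlap and their counts are not independent. Serpinf2 was covered to 65.3, 64.9 and 51.9% on LD and to 82.0, 75.0 and 83.3% on CD. C8b was covered to 25.8, 23.0 and 22.2% on LD and to 33.7, 40.9 and 41.9% on CD, and its neighbour C8a shares part of this sequence. The fibrinogen genes sat in a single H3K27ac locus found in all 6 samples. Fgb, whose RNA fell, was covered to 72.3, 71.9 and 71.5% on LD and to 71.1% in each CD sample, one of the 2 members with higher LD coverage, but after division by covered length each LD sample was below each CD sample. Mbl1 was the other, at 61.2, 59.5 and 58.1% against 48.8, 55.2 and 54.7%.

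Division by the covered length of each sample gave 26 members lower and 0 higher, against 16.4% and 12.9% of tested genes. Every LD sample had more covered sequence than every CD sample, so a gene with equal coverage in all samples counts as lower here. Members had a higher median coverage than tested genes, so these shares do not come from a like set of genes. Of 167 pairs of a member and a nearby locus, 121 were found in all samples, 0 in LD samples only and 1 in CD samples only (F12, chr13:55518600-55520199), against 3.13% and 0.757% of all 50205 loci.

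**Figure D3:**
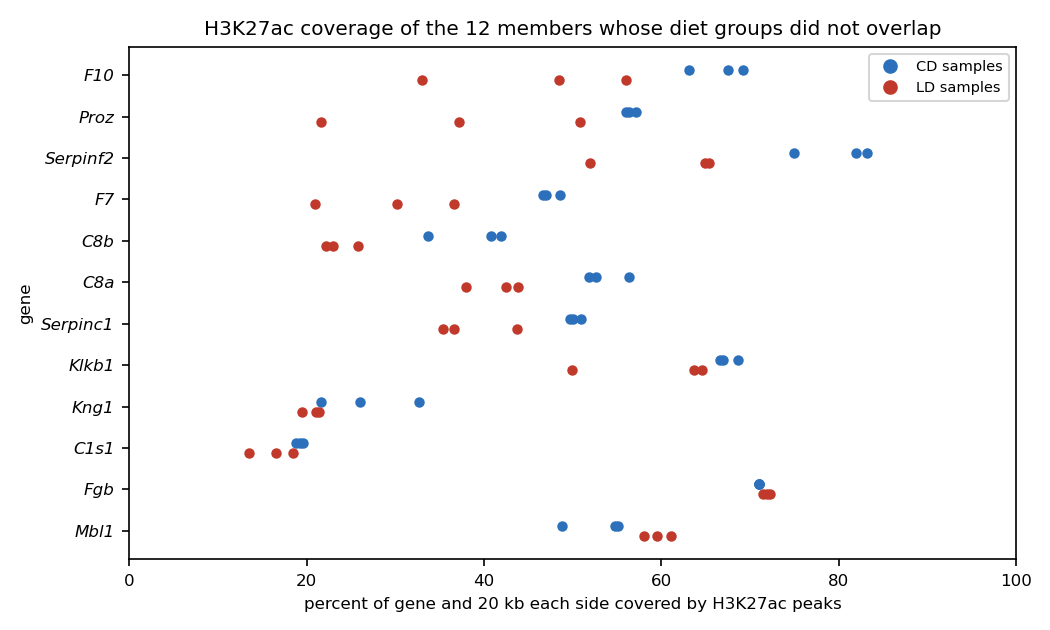
Percentage of each gene and 20 kb on each side covered by H3K27ac peaks (horizontal axis) in 3 CD and 3 LD samples for the 12 members (vertical axis) whose diets did not overlap. In 10 members all LD points lie left of all CD points, and only Fgb and Mbl1 show the reverse.

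HNF4α loci with a peak in all 4 samples lay within 20 kb of 41 of 42 members and of 66.6% of tested genes, and within 1 kb of the start of 30 members and of 21.2% of genes. For C/EBPα the corresponding values were 34 members and 57.3%, and 21 members and 15.7%. Heights are normalized tag counts as deposited. Of 128 HNF4α loci near members, limma called 0 lower or higher on LD, against 0% of 23344 loci in each direction. At an unadjusted p under 0.05 there were 2 near members and 610 (2.61%) over all loci. Heights in both LD samples were above both CD samples at 9 loci near members and below at 4, against 16.6% and 2.62% of all loci. One of the 4 was the C8b promoter locus (chr4:104438728-104438996), at 22.5 and 11 on LD and 25.2 and 52.0 on CD (log2 difference -1.20, limma adjusted p = 1). CD replicate 1 had the lowest median height of the 4 HNF4α lists (15.2, against 19.2 to 21.5). With heights centred on each sample's median, 3 loci near members were called lower and 0 higher, against 2.7% and 2.8% of all loci.

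At the 13813 C/EBPα loci with a peak in all 4 samples, heights were lower on LD, with a median log2 difference of -0.412. Peak presence differed the other way, since among 33005 loci called in 2 or more samples 15.3% had peaks in both LD samples and no CD sample, and 5.22% the reverse. Near members 21 of 161 such loci had peaks in LD samples alone and 10 in CD samples alone. The median height over all deposited peaks of a sample was lowest in CD replicate 2 (8.5, against 13 in the other CD sample and 11.5 to 12.5 on LD), which also had the lowest height at the 2 loci near members that were called higher. The median height difference at loci near members with a peak in all 4 samples was -0.557. Both LD samples were below both CD samples at 44 of 77 loci near members and above at 4, against 46.4% and 8.35% of all loci. Limma called 2 loci near members higher and 0 lower, against 0.847% and 2.15% of all loci, and at an unadjusted p under 0.05 there were 19 near members and 3261 (23.6%) over all loci. With median-centred heights 6 were called higher and 10 lower, against 8.98% and 10.2% of all loci.

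At the fibrinogen genes, C/EBPα heights were 130.0 and 133.0 on LD and 263.5 and 180.0 on CD at the intergenic locus between the 3′ ends of Fga and Fgb (chr3:82842859-82843173, log2 difference -0.73, limma adjusted p = 0.161). At the Fga promoter locus (chr3:82829783-82830097) they were 34.0 and 59.5 against 100.5 and 69.5 (log2 difference -0.89, limma adjusted p = 0.147). The Fgg promoter locus (chr3:82811336-82811650) gave 23.5 and 32.5 against 66.5 and 36.0, and the locus centred at base -2476 from the Fgb start (chr3:82856102-82856421) 28.0 and 23.5 against 68.0 and 47.0, with limma adjusted p of 0.216 and 0.0958. Each LD height was below each CD height at these 4 loci, and none was called. The central 200 bases of the intergenic locus, the highest C/EBPα locus of the cluster, are shown on the plus strand with 2 C/EBP words in capitals. Such a word stood in the central 200 bases of 46.8% of the 77 loci near members and of 46.7% of all C/EBPα loci.
Fga-Fgb intergenic locus (chr3:82842917-82843116): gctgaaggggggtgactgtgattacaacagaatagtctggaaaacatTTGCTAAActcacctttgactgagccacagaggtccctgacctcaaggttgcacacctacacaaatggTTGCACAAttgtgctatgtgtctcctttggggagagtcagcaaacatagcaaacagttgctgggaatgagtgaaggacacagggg

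The C3 promoter locus (chr17:57367457-57367771) had heights of 99.5 and 93.5 on LD and 229.0 and 135.0 on CD (log2 difference -0.87, limma adjusted p = 0.115). The 2 loci called higher went against this direction. At the C6 promoter (chr15:4676908-4677347) heights were 53.5 and 63.5 on LD and 42.5 and 9.0 on CD (log2 fold change 1.58, limma adjusted p = 0.0222), although C6 RNA was lower on LD. At a locus centred 19165 bases downstream of the Mbl1 start (chr14:41983733-41984088), in intergenic sequence, heights were 50.5 and 51.0 against 21.5 and 12 (log2 fold change 1.66, limma adjusted p = 0.0187), and Mbl1 RNA was not called. Neither locus was called when any 1 of the 4 samples was left out. The central 200 bases of the Mbl1 locus are given on the plus strand with the C/EBP word in capitals.
Mbl1 downstream locus (chr14:41983811-41984010): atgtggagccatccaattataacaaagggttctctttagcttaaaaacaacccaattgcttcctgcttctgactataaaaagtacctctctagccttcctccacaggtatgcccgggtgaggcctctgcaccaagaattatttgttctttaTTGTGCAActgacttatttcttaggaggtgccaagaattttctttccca

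**Figure D4:**
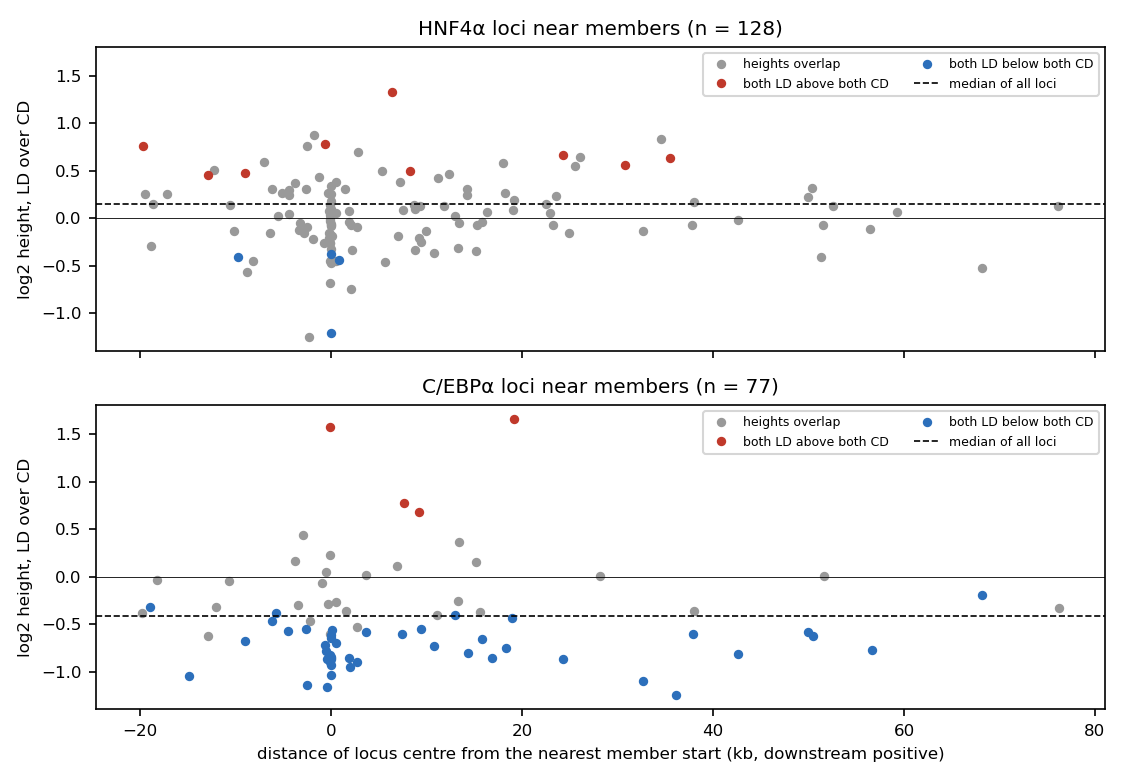
Log2 ratio of peak height (LD over CD, vertical axes) at 128 HNF4α and 77 C/EBPα loci within 20 kb of a member, against the distance of the locus centre from the nearest member start (horizontal axis, kb). The dashed line is the median of all loci (0.149 for HNF4α and -0.412 for C/EBPα), and colour marks the 9 and 4 loci with both LD samples above and the 4 and 44 with both below.

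Transcripts of the profiled factors themselves were not called with all libraries. Hnf4a was at 399.8 ± 34.7 CPM on LD and 478 ± 19.3 on CD (log2 difference -0.26, edgeR adjusted p = 0.0176), and Cebpa at 321 ± 26.8 and 384 ± 23.5 (log2 difference -0.26, edgeR adjusted p = 0.0202). Both were short of the fold limit, but this depended on the setting. Hnf4a was called lower without LD replicate 4 (log2 fold change -0.31, edgeR adjusted p = 0.00473) or CD replicate 1 (-0.28, edgeR adjusted p = 0.0197). Cebpa was called lower with DESeq2 (log2 fold change -0.26, adjusted p = 0.0034), with its size factors in edgeR (adjusted p = 0.0195), and without LD replicate 1, 3 or 4 or CD replicate 3 or 4 (log2 fold change -0.30 to -0.27, edgeR adjusted p from 0.0125 to 0.0352).

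Promoter capture lists held 207 interactions of members on LD and 251 on CD, at a CHiCAGO score of at least 5, with 32 and 35 members having any. Of the LD interactions 130 (62.8%, exact binomial 95% interval 55.8 to 69.4%) were also listed on CD, against 69.6% of all 151203 LD interactions. Of the CD interactions the same 130 (51.8%, 45.4 to 58.1%) were also listed on LD, against 70.3% of all 149798. These shares moved with the setting, to 100% (LD) and 71.88% (CD) at a score of at least 10, and to 77.29% and 77.69% with fragments extended by 5 kb, settings for which no share over all interactions was computed. Each list pools its replicates, so that no test between diets was made and intervals cover counting error only. Fgg had 5 interactions on LD and 22 on CD, Fgb 9 and 14, and Fga 2 and 6. The Fgg promoter was linked with the fragment that holds the Fgb start (chr3:82852598-82857288) on both diets, at a score of 8.39 on LD and 10.34 on CD. It was linked with the fragment that holds the intergenic C/EBPα locus (chr3:82839487-82844110) on CD alone, at a score of 5.06 close to the cutoff.

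C4bp (7 and 16), Cfi (8 and 15) and F11 (3 and 10) also had fewer interactions on LD, while Masp2 (15 and 5), Cpb2 (12 and 4), Cfd (11 and 4) and C3 (9 and 4) had more. Among the 18 members called lower in RNA, 10 had more interactions on CD, 2 more on LD, 2 the same number and the others none. Among the 22 not called, 12 had more on CD, 5 more on LD and 3 the same number. Of the members called higher, Cfd (11 and 4) and Pros1 (4 and 3) had more on LD. For Pros1 the highest scores were 6.22 on LD and 6.4 on CD, near the cutoff. The share of all genes with more interactions on either diet is not given here.

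**Figure D5:**
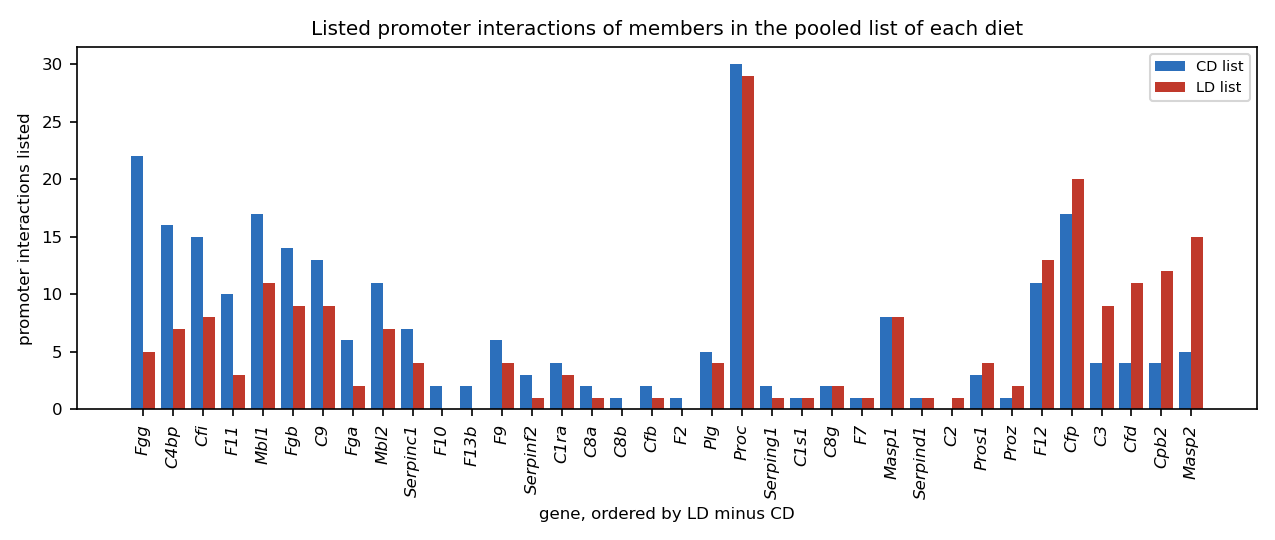
Number of promoter interactions (vertical axis) listed for each member with any interaction (horizontal axis, ordered by LD minus CD) in the pooled CD and LD lists. Fgg has the largest deficit on LD (5 against 22) and Masp2 the largest excess (15 against 5).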

How the data were processed

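The members and gene lists were chosen with earlier results of these data known. Per the labels' processing notes and the study's methods, the authors aligned RNA reads to mm9 with STAR 2.5 and counted read pairs by strand per RefSeq gene with featureCounts 1.5.0-p1; the raw count table and a TPM table were deposited. The comparison columns of the TPM table (fold change, FDR and status) were not used. ChIP-seq reads were aligned with Bowtie 0.12.8, and H3K27ac peaks were called per sample with SICER and factor peaks per sample with HOMER, whose normalized tag counts, a signal the authors scaled to library size, were used as deposited. The CHiCAGO score of each interaction was deposited for pooled replicates. How gene lengths entered TPM was not given in the sources used here.

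Counts were tested with edgeR 4.0.16 (TMM, filterByExpr, robust glmQLFit) in R 4.3.3, with diet as the term and Benjamini-Hochberg adjustment over 13494 genes, at adjusted p under 0.05 and fold above 1.2. On simulated 2-fold changes of 200 genes, 191 were recovered with 14 false calls. Log2 factor heights at loci with a peak in all 4 samples were tested with limma 3.58.1 (trend). Alternatives used DESeq2 1.42.0, TPM with pseudocounts of 1 and 0.1, other filters and windows, and each sample left out. All 42 members could be named, with library values for called members and the highest by TPM of each group; other cascade genes were named if called above 2-fold, apart from an item not reported here. Replicate numbers entered only as an alternative block. CPM precision follows from totals of 31707963 to 39012699 counts per library before the TMM adjustment. Domains of Hi-C were not analysed here.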

Additional observations from a re-analysis of the deposited data

Results flagged for a closer look

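In CD replicate 3, Proz stood at 288 CPM, above the nearest CD library at 267 CPM by 0.717 of the range of that diet. It was the only library far from the others of its diet among 84 groups examined (42 members in each diet). Chance alone singles out about 1 in 20 groups in such a comparison.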

How the results depend on the processing

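Counts of members called in RNA stayed at 2 higher and 18 lower with DESeq2, its size factors in edgeR and no filter. With at least 10 counts in every sample 1 was higher, and with edgeR's glmTreat against 1.2-fold 1 was higher and 11 were lower (6.81% and 3.4% of all genes). With any 1 library left out there were 2 to 2 higher and 18 to 20 lower, and the median went from -0.2585 to -0.1852. It was -0.1546 with limma on log2(TPM + 1) and -0.1552 with log2(TPM + 0.1). The median of all genes was then 0.0563 and 0.0712, against -0.0019 in the main fit. The replicate numbers did not pair the libraries (correlation of same-numbered deviations -0.078 to 0.191), and with a replicate block 2 were higher and 18 lower, with a median of -0.2328. Members that were not called changed sign in 5 instances, C4b (0.0363 and 0.0364 with TPM + 1 and + 0.1), Cfp (-0.0032 without LD replicate 2, and up to 0.4294 with another library left out) and C4bp (-0.0064 without LD replicate 3 and -0.0038 without CD replicate 4, and up to 0.05). H3K27ac coverage was higher on LD in 0 members at 5 kb and 4 at 50 kb, and lower in 7 and 9. No share over all genes was computed for these windows. After division by covered length it was higher in 0 and lower in 26, against 12.9% and 16.4% of tested genes. With each sample left out it was higher in 2 to 4 and lower in 10 to 18, against 25.9 to 30.1% and 6.74 to 11% of tested genes. Centred heights gave 3 HNF4α loci lower, and 6 C/EBPα loci higher with 10 lower. C/EBPα gave 1 higher at 5 kb, 1 lower at 50 kb, and 0 higher with a replicate block or with any 1 sample left out (0 to 0). Shares of shared interactions became 100% (LD) and 71.88% (CD) at a score of at least 10, and 77.29% and 77.69% with fragments extended by 5 kb. The cause of these shifts was not tested. A lone sample left in a diet was assumed to vary like the others.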
